A study of Mus musculus with 6 samples.

Results

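ATP-binding cassette (ABC) transporters were examined in the mouse mammary carcinoma line 4T1 with and without corticosterone, the chief adrenal glucocorticoid in mice. Members were the protein-coding genes of the deposited table whose symbol is Abc, a subfamily letter from a to g and a number, with or without a final letter. This gave 41 of 28154 genes. A further gene with such a symbol, Abcc6, is not listed there as protein-coding and was left out. The groups were 3 libraries of corticosterone-treated 4T1 cells and 3 libraries of control 4T1 cells, each prepared from total RNA. The sources used here do not give the dose, the length of treatment, what the control cells received or whether each library is a culture of its own. The p-values therefore cover the spread between these libraries alone, which may be technical.

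ABC proteins bind and hydrolyse ATP, and most use it to move a substrate across a membrane. The letters A to G name subfamilies that differ in domain order and in cargo, from cholesterol and phospholipids to bile salts, conjugated drugs and mitochondrial metabolites. The best known in cancer is P-glycoprotein, the multidrug efflux pump of the plasma membrane, which exports many hydrophobic drugs and also steroids such as dexamethasone. Humans have a single gene for it, ABCB1, whereas the mouse has a neighbouring pair, Abcb1a and Abcb1b.

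The promoter windows of Abcb1a, Abcb1b and their neighbour Abcb4, a phospholipid transporter of the bile canaliculus, are shown because the pair rose with corticosterone while Abcb4, beside them, was hardly detected. Each window runs from 250 bases before the RefSeq transcript start to 50 bases after it (GRCm38.p6). Capitals mark every match, on either strand, to AGAACA, the core of a glucocorticoid receptor element, to CCAAT, a site of the factor NF-Y, and to GGGCGG, a GC box bound by Sp1. No match overlaps another.
Abcb1a promoter, chr5:8566841-8567140, plus strand: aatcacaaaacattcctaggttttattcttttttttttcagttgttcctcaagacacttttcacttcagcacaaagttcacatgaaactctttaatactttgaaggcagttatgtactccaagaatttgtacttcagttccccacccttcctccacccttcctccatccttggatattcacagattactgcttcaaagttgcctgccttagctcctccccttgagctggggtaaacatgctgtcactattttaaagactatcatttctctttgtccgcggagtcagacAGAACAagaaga
Abcb1b promoter, chr5:8797897-8798196, plus strand: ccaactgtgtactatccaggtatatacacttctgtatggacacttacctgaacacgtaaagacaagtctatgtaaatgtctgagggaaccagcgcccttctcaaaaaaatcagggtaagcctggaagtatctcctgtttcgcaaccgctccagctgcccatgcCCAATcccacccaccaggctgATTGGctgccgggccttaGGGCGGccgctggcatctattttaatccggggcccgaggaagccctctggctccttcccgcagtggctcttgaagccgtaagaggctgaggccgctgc
Abcb4 promoter, chr5:8893471-8893770, plus strand: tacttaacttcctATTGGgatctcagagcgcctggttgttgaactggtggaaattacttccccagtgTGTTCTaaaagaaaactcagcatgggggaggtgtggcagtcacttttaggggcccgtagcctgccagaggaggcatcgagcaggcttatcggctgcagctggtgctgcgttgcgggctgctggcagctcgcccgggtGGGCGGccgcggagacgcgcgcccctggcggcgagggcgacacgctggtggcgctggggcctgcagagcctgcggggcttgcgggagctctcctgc

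The Abcb1a window held 1 AGAACA match, in the last bases after the start, and none of the other motifs. The Abcb1b window held 2 CCAAT boxes and 1 GC box and no AGAACA. The Abcb4 window held 1 match to each. A relaxed full glucocorticoid element, GNACA and TGTNC with any 3 bases between them, was found in 0 of 38 windows of the 31 members with a window, and in 0.475% of 32851 windows of all genes. AGAACA was in 7 of the 38 member windows (18.4%) and in 19.0% of all windows, CCAAT in 34.2% of member windows and 37.4% of all, and GGGCGG in 52.6% of member windows and 35.7% of all. A match is only a run of letters, and these windows cover a small part of the regulatory sequence of each gene. The windows also differed in base composition, with a GC content of 40.3% for Abcb1a, 55.0% for Abcb1b and 64.0% for Abcb4, against a median of 52.7% over all windows.

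The table and RefSeq place the start of Abcb1b at the same base. For Abcb1a, the RefSeq start lies 93.0 kb before the start in the table (8660077), inside the interval of the neighbouring gene Rundc3b on the opposite strand. Which start was used in 4T1 cells was not tested.

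The coding sequences of the pair are alike, which bears on how reads are shared between them. In GENCODE M21 (GRCm38) both are 3828 bases long and 88.2% identical over 3816 aligned bases, against 76.3% between Abcb1a and Abcb4. Stretches of 60 coding bases were compared that had no gap, kept the reading frame and crossed no exon boundary in either gene. The one in which the pair differs most carries 24 differences, shown in capitals.
Abcb1a, chr5:8714923-8714982, plus strand: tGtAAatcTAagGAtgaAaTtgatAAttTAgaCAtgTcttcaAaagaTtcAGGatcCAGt
Abcb1b, chr5:8827362-8827421, plus strand: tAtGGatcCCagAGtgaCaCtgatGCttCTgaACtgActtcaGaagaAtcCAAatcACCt
Elsewhere the pair shares stretches without a difference, the longest of 338 bases, and the following 60 bases come from such a run.
Abcb1a, chr5:8685222-8685281, plus strand: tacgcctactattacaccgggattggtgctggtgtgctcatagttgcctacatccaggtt
Abcb1b, chr5:8812656-8812715, plus strand: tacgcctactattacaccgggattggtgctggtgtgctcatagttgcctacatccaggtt
Of all windows of 100 bases in the Abcb1a transcript, 7.49% occur unchanged in Abcb1b, and of windows of 50 bases 15.5%. The sources used here do not say how the authors' counting treated reads from such stretches, so counts from these stretches are uncertain between the pair.

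Each library held 62.2 to 66.2 M counts. The first principal component of log2 CPM (counts scaled to library size) held 27.3% of the variance. Scores were 35.9, 17.1 and 42.1 in corticosterone replicates 1, 2 and 3 and -30.2, -44.6 and -20.3 in control replicates 1, 2 and 3, so replicate 2 of the treated cells lay nearest to the control libraries. Epithelial keratins, Epcam and Cdh1 summed to 1437 to 1699 FPKM (fragments scaled to transcript length and library depth) with corticosterone and 1549 to 1613 FPKM in controls. The leukocyte list, 7 genes carried mainly by Cd68, summed to 23.0 to 27.8 FPKM with corticosterone and 25.7 to 27.5 FPKM in controls, with Cd3e under 0.1 FPKM. The fibroblast list summed to 12.9 to 13.9 FPKM with corticosterone and 12.3 to 13.8 FPKM in controls, and the 4 endothelial genes in the table to 0.0983 to 0.123 FPKM with corticosterone and 0.204 to 0.286 FPKM in controls, with Cdh5, Kdr and Tek under 0.1 FPKM. By edgeR, 0 genes of these 4 lists passed the threshold, 3 had an unadjusted p under 0.05, and DESeq2 called Krt14. Over all 17283 tested genes, 2944 (17.0%) had an unadjusted p under 0.05, and counts at that level are to be read against this share here and in the lists that follow. In such bulk libraries, fewer cells of a kind and less RNA per cell cannot be told apart.

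Both genes of the P-glycoprotein pair rose with corticosterone, and they were the only members of the family that passed the test. A gene is said to have risen or fallen where edgeR's quasi-likelihood test gave an adjusted p under 0.05 (Benjamini-Hochberg over all 17283 tested genes). Of 31 members with enough counts to be tested, 2 rose and 0 fell, where 1.35% of all tested genes rose, 1.46% fell and 2.82% did either. Among the members 9 had an unadjusted p under 0.05, against 17.0% of all tested genes, 7 of them higher with corticosterone and 2 lower. DESeq2 gave 25 members an adjusted p and called 4 higher and 0 lower. Over 13955 genes it called 4.04% higher and 8.1% in either direction. Limma on log2(FPKM + 1) was fitted to genes with at least 1 FPKM in at least 3 libraries. It held 20 members and called 2 higher and 0 lower. The share of all genes that limma called is not given in this report. The number of calls rested on 1 library: without corticosterone replicate 2, 7 members were higher and 1 lower, where 10.5% of all genes were higher and 20.5% were called in either direction.

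Abcb1a had 26.4, 22.8 and 24.0 CPM in corticosterone-treated cells and 8.11, 10.5 and 8.56 CPM in control cells. Every treated library lay above every control library, and control replicate 2 was the highest of the controls. The mean was 24.4 ± 1.83 CPM with corticosterone and 9.05 ± 1.25 CPM in controls (SD, n = 3 each), a 2.69-fold difference (log2 fold change 1.43, SE 0.116; edgeR, adjusted p = 0.00111). The gene (ENSMUSG00000040584) lies at chr5:8660077-8748575 on the plus strand in the coordinates of the table. It overlaps Gm42686 on the opposite strand, which did not exceed 0.382 CPM in any library.

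Abcb1b, the more abundant gene of the pair, had 213, 198 and 221 CPM in corticosterone-treated cells and 125, 123 and 120 CPM in control cells. The groups did not overlap, and corticosterone replicate 2 was the lowest treated library. The mean was 211 ± 11.8 CPM with corticosterone and 123 ± 2.50 CPM in controls (SD, n = 3 each), a 1.72-fold difference (log2 fold change 0.78, SE 0.0568; edgeR, adjusted p = 0.00078). The gene (ENSMUSG00000028970) lies at chr5:8798147-8865935 on the plus strand and overlaps Gm5106 on the opposite strand, which did not exceed 0.428 CPM in any library. With each library left out in turn, both genes were called in all 6 fits, with a log2 fold change of 1.36 to 1.55 for Abcb1a and 0.74 to 0.82 for Abcb1b.

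**Figure D1:**
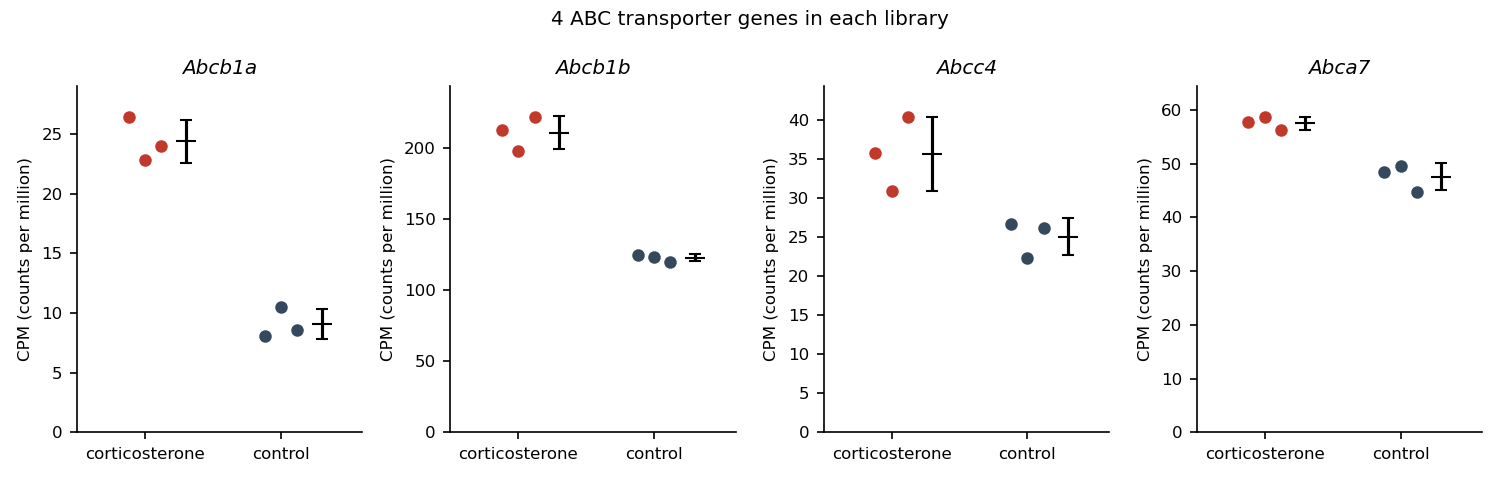
CPM (vertical axes, from 0) of Abcb1a, Abcb1b, Abcc4 and Abca7 in each of the 3 corticosterone and 3 control libraries (points), with the mean and SD beside them. All treated libraries lie above all control libraries for each of the 4 genes, by the widest ratio for Abcb1a (24.4 against 9.05 CPM on average).

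The change of Abcb1a exceeded that of Abcb1b in size, though the test could not reach significance at this number of libraries. The log2 ratio of Abcb1a to Abcb1b counts within a library, in which library scaling cancels, was -3.01, -3.12 and -3.21 with corticosterone and -3.95, -3.56 and -3.81 in controls. The groups did not overlap, and they differed by 0.66 on the log2 scale (two-sided p = 0.1 in an exact permutation test, the lowest value that 3 against 3 can give). On log2(FPKM + 1), where the pseudocount shrinks the low gene more, the difference was 0.27.

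Per unit of transcript length Abcb1b remained the main source of P-glycoprotein transcript. Abcb1a reached 3.94 ± 0.340 FPKM with corticosterone and 1.46 ± 0.202 FPKM in controls, and Abcb1b 23.4 ± 1.65 FPKM with corticosterone and 13.6 ± 0.337 FPKM in controls (SD, n = 3 each). Abcb1a made up 15.3%, 14.4% and 13.6% of the pair's FPKM in the treated libraries and 8.63%, 11.0% and 9.41% in the controls. The pair together made up 10.2%, 9.42% and 10.4% of the summed FPKM of the family in the treated libraries and 6.05%, 6.13% and 5.82% in the controls. Neither share overlapped between the groups. The other 39 members summed to 246 ± 3.07 FPKM with corticosterone and 236 ± 0.436 FPKM in controls (SD, n = 3 each).

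**Figure D2:**
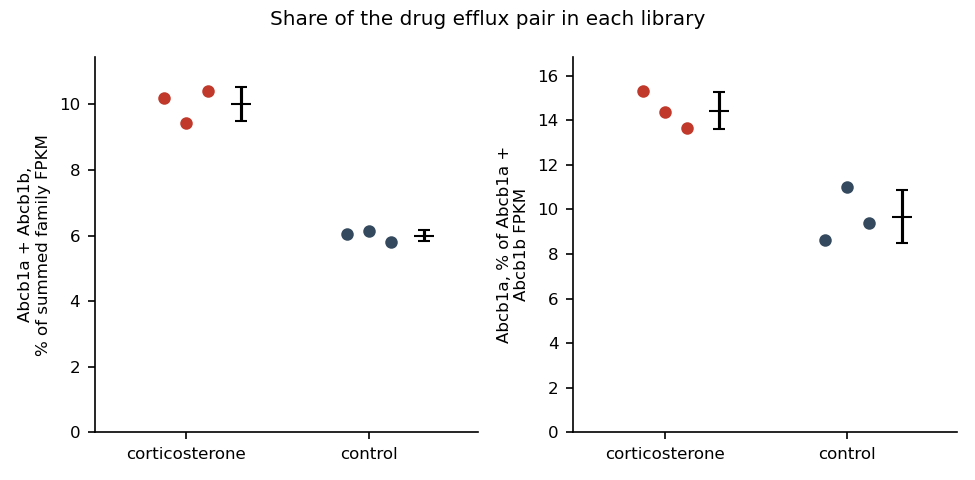
Share of Abcb1a plus Abcb1b in the summed FPKM of the 41 family members (left, %) and share of Abcb1a in the FPKM of the pair (right, %), per library (points), with mean and SD, corticosterone left of control. Both shares are higher in every treated library: the lowest treated values are 9.42% and 13.6%, and the highest control values 6.13% and 11.0%.

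The genes around the pair were compared to see whether the rise was shared along the chromosome. Of 15 genes overlapping the interval from 300 kb before Abcb1a to 300 kb after Abcb1b, 13 were tested, 4 rose and 0 fell. Over all tested genes 1.35% rose and 1.46% fell. The 4 were Adam22, Rundc3b and the pair, around which the interval was drawn. At an unadjusted p under 0.05, 5 were higher and 0 lower, against 17.0% of all tested genes in either direction. DESeq2 gave 9 of the 13 an adjusted p and called 4 higher and 0 lower, where it called 4.04% of 13955 genes higher. Limma held 9 of the 13 and called 3 higher and 0 lower. Adam22, with at most 0.214 FPKM, was below the limit for limma and was not fitted by it. Without corticosterone replicate 2, 6 were called, where 20.5% of all genes were called. Adam22, a membrane protein of the ADAM family that lacks protease activity, had 3.45, 2.44 and 2.37 CPM with corticosterone and 0.598, 0.567 and 0.858 CPM in controls. All treated libraries lay above all controls (log2 fold change 2.03, SE 0.251; edgeR, adjusted p = 0.00632). The call was lost without control replicate 2 (adjusted p = 0.0508, against 1.89e-08 to 0.0508 over 10 alternatives).

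Rundc3b, a RUN domain protein, is encoded on the minus strand, and its start lies 37.1 kb before the table's start of Abcb1a. It had 12.6, 11.9 and 14.0 CPM with corticosterone and 8.20, 7.52 and 9.56 CPM in controls. The groups did not overlap (log2 fold change 0.61, SE 0.118; edgeR, adjusted p = 0.0355). Its call held in 1 of 6 fits that left out a library, the one without corticosterone replicate 2, and the adjusted p was 0.0545 to 0.184 in the others. It was also lost without a filter on low counts (0.0936). The RefSeq start of Abcb1a lies inside Rundc3b, and the sources used here do not give the strandedness of the libraries. Without strand, reads from overlapping genes cannot be told apart.

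Abcb4, which follows Abcb1b on the same strand, was near the limit of detection. It had 0.207, 0.0766 and 0.352 CPM with corticosterone and 0.0315, 0.260 and 0.291 CPM in controls, with overlapping groups (log2 fold change 0.12, SE 0.799, adjusted p = 0.958), so a change of the size seen in the pair was not detectable at this depth. Among the other neighbours, Dbf4, the activator of the Cdc7 replication kinase, had 181, 167 and 172 CPM with corticosterone and 154, 156 and 157 CPM in controls. Its groups did not overlap (log2 fold change 0.16, adjusted p = 0.167). Slc25a40, Crot, Tmem243 and Dmtf1 had log2 fold changes between 0.01 and 0.18, and their groups overlapped. Without corticosterone replicate 2, edgeR called Dbf4 (log2 fold change 0.18, adjusted p = 0.0160) and Dmtf1 (0.29, adjusted p = 0.0113) higher, where 10.5% of all genes were higher. Over 13 alternatives the adjusted p ran from 0.0160 to 0.503 for Dbf4 and from 0.0113 to 0.795 for Dmtf1. The scarce transcripts Gm5106, Gm17936 and Gm15610 had log2 fold changes of -0.43, 0.08 and -0.05 and overlapping groups.

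**Figure D3:**
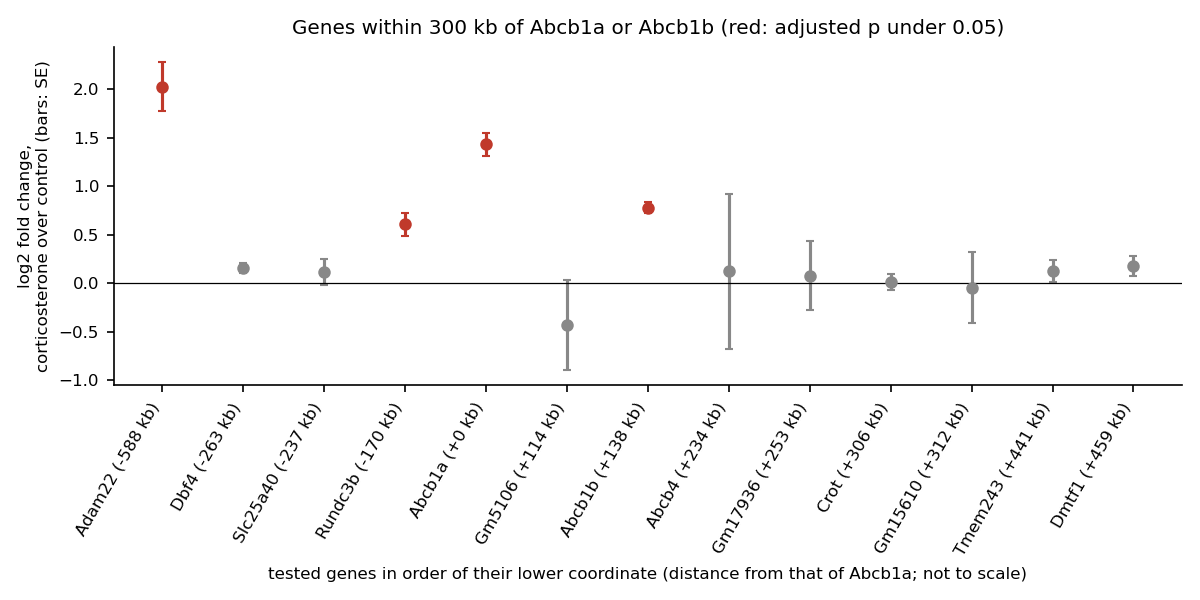
Log2 fold change, corticosterone over control, with its SE (vertical axis), of the 13 tested genes within 300 kb of Abcb1a or Abcb1b. Genes are ordered by their lower coordinate and labelled with its distance from that of Abcb1a. For genes on the minus strand, such as Adam22 and Rundc3b, the lower coordinate is the end of the gene. Red points passed the test: Adam22 (2.03), Rundc3b (0.61), Abcb1a (1.43) and Abcb1b (0.78). The other genes, on either side of the pair and between them, run from -0.43 (Gm5106) to 0.18 (Dmtf1). Abcb4 (0.12) has the wide SE of a scarce transcript (0.799).

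Levels of the family spanned a wide range in FPKM, a scale that allows genes of different length to be compared. Of 41 members, 20 had a mean of at least 1 FPKM over all libraries and 7 a mean of at least 10 FPKM. The highest means were those of Abcf2 (58.9 FPKM), Abce1 (46.9 FPKM), Abcf1 (38.0 FPKM), Abcb1b (18.5 FPKM) and Abcf3 (13.9 FPKM). Abcb1b was thus the most abundant member with membrane domains, and Abcb1a ranked 18th of the family at 2.70 FPKM.

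**Figure D4:**
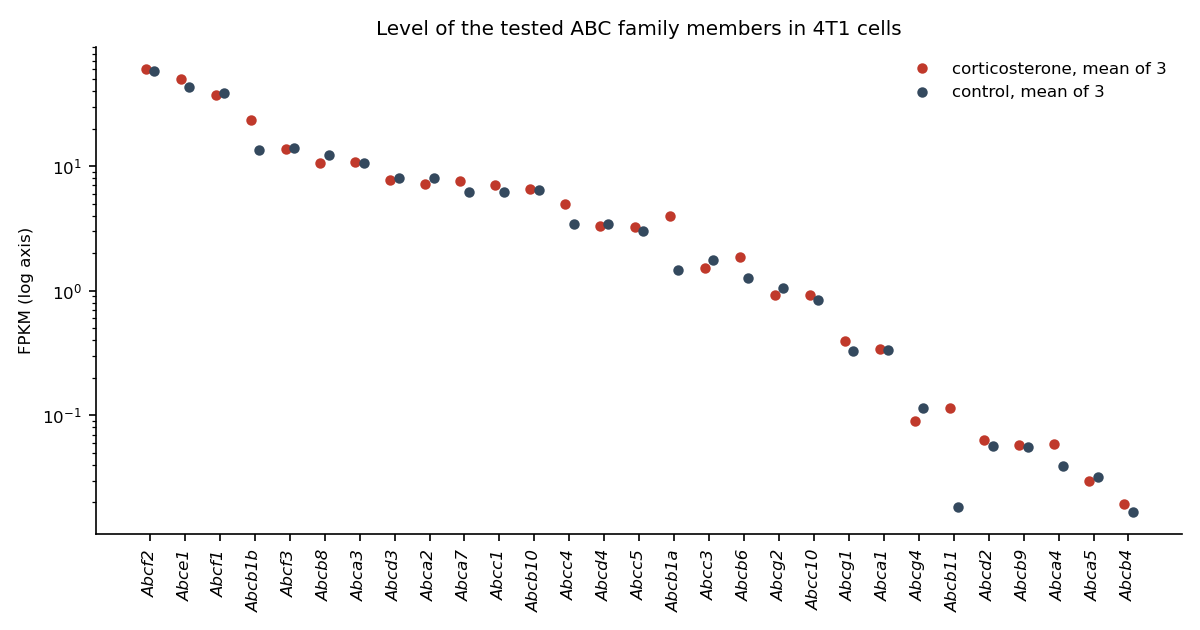
Mean FPKM (vertical log axis) of 29 of the 31 tested members with corticosterone (red) and in controls (dark), ordered by their mean over all 6 libraries. Abcf2 leads at 58.9 FPKM and Abcb1b is 4th at 18.5 FPKM; the groups are visibly apart for Abcb1b, Abcb1a and, at very low level, Abcb11.

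The other 29 tested members showed no call (7 with an unadjusted p under 0.05, against 17.0% of all tested genes; DESeq2 called Abcc4 and Abca7), and their median log2 fold change was 0.05, against 0.00 over all tested genes. In 5 of them the treated libraries lay wholly above the controls (Abcb6, Abcb11, Abca4, Abcc4 and Abca7), and in 3 wholly below (Abcc3, Abca2 and Abcg2). Over all tested genes, 10.6% lay wholly above and 11.6% wholly below.

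In the ABCC subfamily, which exports organic anions and conjugated drugs, 0 of 5 tested members were called by edgeR, 2 had an unadjusted p under 0.05 and DESeq2 called Abcc4. Abcc4 (Mrp4), an exporter of cyclic nucleotides and prostanoids, had 35.8, 30.9 and 40.3 CPM with corticosterone and 26.8, 22.4 and 26.1 CPM in controls. Its groups did not overlap, and it missed the threshold (log2 fold change 0.51, SE 0.114; edgeR, adjusted p = 0.0583). It passed with DESeq2 (adjusted p = 0.000902), with the replicate number as a block (0.0487) and without corticosterone replicate 2 (0.00355), out of a range of 0.000902 to 0.257 over 13 alternatives. Abcc1 (Mrp1), which exports glutathione conjugates, had 125, 104 and 133 CPM with corticosterone and 109, 108 and 99.3 CPM in controls, and corticosterone replicate 2 lay within the controls (adjusted p = 0.326). Without that library Abcc1 was called higher (log2 fold change 0.30; edgeR, adjusted p = 0.00643, out of a range of 0.00643 to 0.667 over 13 alternatives). Abcc3, an exporter of glucuronides, averaged 9.89 ± 0.566 CPM with corticosterone and 11.5 ± 0.370 CPM in controls (SD, n = 3 each; adjusted p = 0.273). Abcc5 and Abcc10 had log2 fold changes of 0.08 and 0.13 with overlapping groups.

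The ABCA subfamily handles membrane lipids, and 0 of its 6 tested members were called by edgeR, 2 had an unadjusted p under 0.05 and DESeq2 called Abca7. Abca7, a phospholipid transporter, had 57.7, 58.6 and 56.2 CPM with corticosterone and 48.5, 49.5 and 44.7 CPM in controls. The groups did not overlap (log2 fold change 0.27, SE 0.0631; edgeR, adjusted p = 0.0645). It passed with DESeq2 (0.00571), with genes limited to a mean of at least 1 FPKM (0.0445) and without corticosterone replicate 2 (0.0172), out of a range of 0.00571 to 0.267 over 13 alternatives. Abca2, a lipid transporter of endosomes and lysosomes, had 69.4, 66 and 66.9 CPM with corticosterone and 73.2, 77.4 and 76.0 CPM in controls, a non-overlapping difference that was small (log2 fold change -0.16, SE 0.0545, adjusted p = 0.177). Abca1, the exporter of cholesterol to apolipoprotein A-I, averaged 4.02 ± 0.972 CPM with corticosterone and 3.96 ± 0.729 CPM in controls (SD, n = 3 each; log2 fold change 0.02, adjusted p = 0.971). Abca3, which loads surfactant lipids in lung, had a log2 fold change of 0.03, and Abca4 and Abca5 were under 0.1 FPKM in every library.

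Among the bile transporters, Abcb11, the bile salt export pump, was scarce, with 59, 32 and 38 counts with corticosterone and 0, 11 and 11 counts in controls. The groups did not overlap, but the call was not made (log2 fold change 2.55, SE 0.772; edgeR, adjusted p = 0.143). It was made only without corticosterone replicate 2 (adjusted p = 0.0483, out of a range of 0.0483 to 0.440 over 9 alternatives). It entered the test through its treated libraries, since a gene needs enough counts in 3 libraries, so its passing the filter is not independent of its direction.

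In the ABCB transporters of mitochondria and lysosomes, 0 of 5 were called by edgeR or DESeq2, and 1 had an unadjusted p under 0.05. Abcb6, a porphyrin transporter, had 11.0, 11.4 and 11.5 CPM with corticosterone and 9.95, 4.66 and 8.35 CPM in controls, with control replicate 2 the lowest of all libraries (log2 fold change 0.56, SE 0.236, adjusted p = 0.280). Without that library its log2 fold change was 0.30. Abcb8, a mitochondrial inner membrane transporter, had 56.7, 63.3 and 50.6 CPM with corticosterone and 59.1, 70.3 and 69.3 CPM in controls (adjusted p = 0.308), and without corticosterone replicate 2 it was the only member called lower (log2 fold change -0.31, adjusted p = 0.0328, out of a range of 0.0328 to 0.643 over 13 alternatives). Abcb10, which acts in haem synthesis, and Abcb9, a lysosomal peptide transporter, had log2 fold changes of 0.03 (SE 0.0828) and 0.07 (SE 0.466) with overlapping groups. Abcb9 was scarce, with 11 to 36 counts per library.

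The peroxisomal fatty acid transporters Abcd2 and Abcd3 and the lysosomal cobalamin transporter Abcd4 had log2 fold changes of 0.16, -0.06 and -0.06. Each had overlapping groups, and Abcd2 was scarce, with 18 to 35 counts per library (SE 0.387). In subfamily G, the multidrug pump Abcg2 (breast cancer resistance protein) had 8.32, 9.0 and 8.23 CPM with corticosterone and 9.21, 10.8 and 9.45 CPM in controls (log2 fold change -0.20, SE 0.104, adjusted p = 0.366). Its groups did not overlap. The cholesterol exporters Abcg1 and Abcg4 had log2 fold changes of 0.28 (SE 0.238) and -0.32 (SE 0.346) with overlapping groups. Abcg4 was scarce, with 28 to 57 counts per library.

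None of the 4 ATPases without membrane domains, which act in translation, was called by edgeR or DESeq2, and 1 had an unadjusted p under 0.05. Abce1, which recycles ribosomes after termination, had 355, 301 and 369 CPM with corticosterone and 309, 287 and 285 CPM in controls, and corticosterone replicate 2 lay within the control range (log2 fold change 0.22, SE 0.0807, adjusted p = 0.228). Without that library its adjusted p was 0.00346, out of a range of 0.00346 to 0.553 over 13 alternatives. Abcf1, Abcf2 and Abcf3, the other members of this group, had log2 fold changes of -0.04, 0.05 and -0.03.

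**Figure D5:**
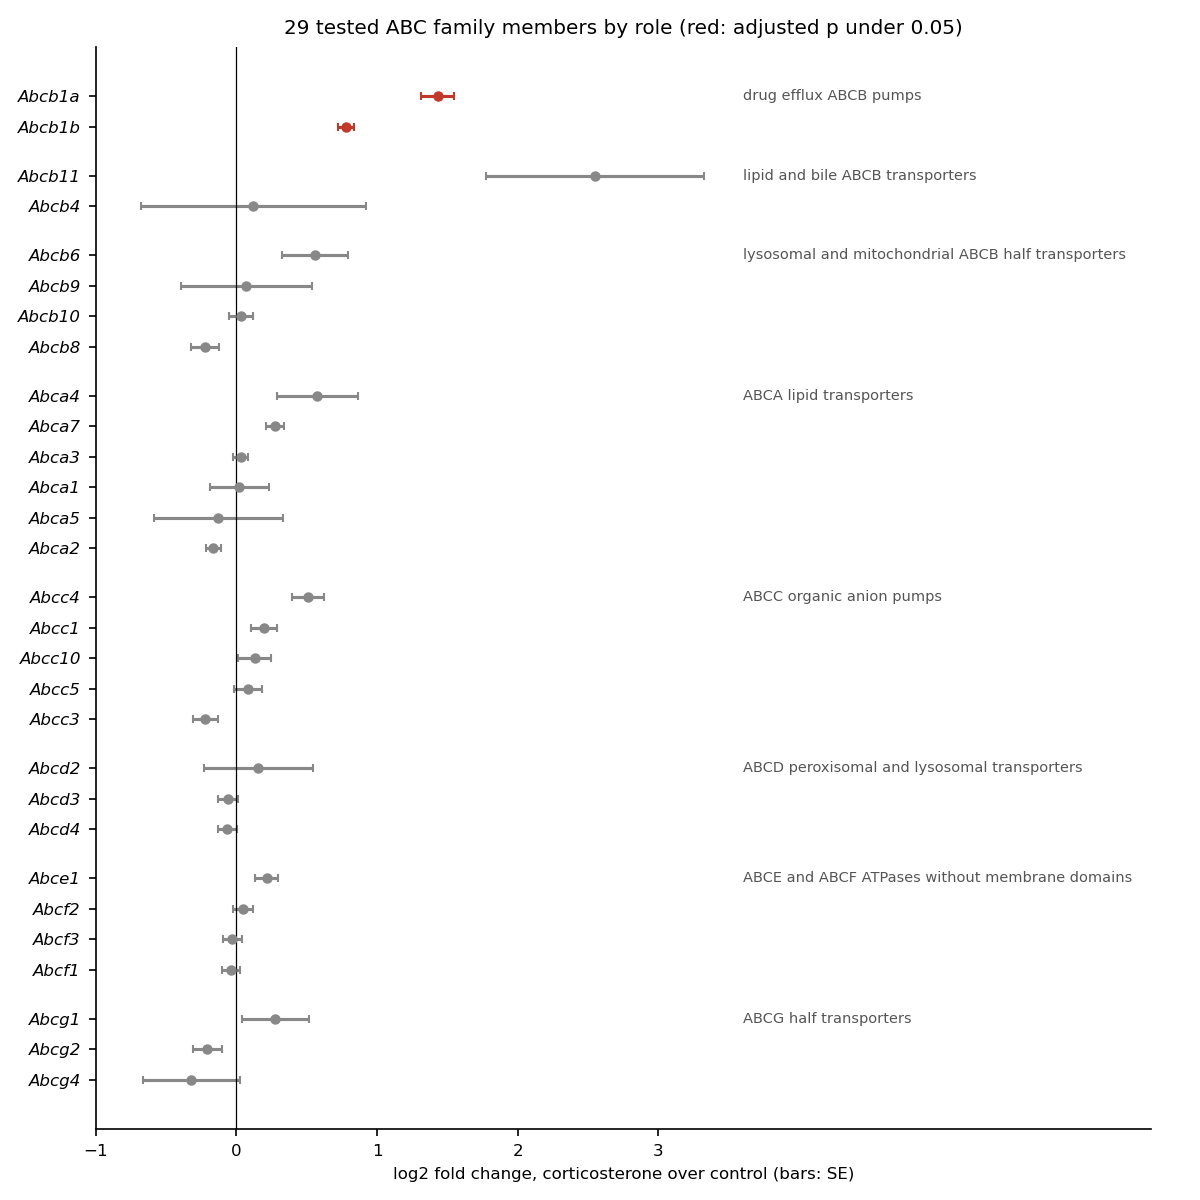
Log2 fold change, corticosterone over control, with its SE (horizontal axis), of 29 of the 31 tested members, grouped by role. Abcb1a (1.43) and Abcb1b (0.78) are the red points that passed the test; Abcb11 lies farther right (2.55) but with the wide SE of a scarce transcript (0.772).

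The 10 members that did not pass the filter on low counts were Abca8b, Abca9, Abca12, Abca13, Abca17, Abcc2, Abcc8, Abcc12, Abcg3 and Abcg8, and none had more than 16 counts in any library. The highest was Abca9, with 6, 15 and 16 counts with corticosterone and 0, 0 and 5 in controls. In every library more genes had exactly 4 counts (1064 to 1159) than 3 (552 to 598) or 5 (350 to 386), so very low counts may not be whole fragments, which was not tested.

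Outside the naming rule, the ABC proteins Tap1 and Tap2, which load peptides for antigen presentation, were not called by edgeR with all libraries. Tap2 had 32.9, 39.3 and 31.4 CPM with corticosterone and 44.3, 45.9 and 51.0 CPM in controls, without overlap (log2 fold change -0.45, SE 0.0995; edgeR, adjusted p = 0.0578), and it passed in 5 of 13 alternatives, whose adjusted p ran from 0.00128 to 0.239. Tap1 had a log2 fold change of -0.32 (adjusted p = 0.179). Cftr, the chloride channel, was not tested, with at most 10 counts. Both Tap genes overlap genes on the opposite strand.

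Known targets of the glucocorticoid receptor were measured beside the family. Of 13 tested genes that the receptor induces elsewhere, 6 rose and 0 fell by edgeR, where 1.35% of all tested genes rose. An unadjusted p under 0.05 was found for 9, all higher with corticosterone, against 17.0% of all tested genes in either direction. DESeq2 called 7 higher and 0 lower, where it called 4.04% of 13955 genes higher. Without corticosterone replicate 2, 7 were called higher and 0 lower, where 10.5% of all genes were higher. Per1, a clock gene, had 62.6, 71.1 and 65.3 CPM with corticosterone and 18.4, 20.5 and 20.1 CPM in controls (log2 fold change 1.75; edgeR, adjusted p = 7.85e-05). Tsc22d3 and Fkbp5 had log2 fold changes of 1.55 and 0.77, beside 1.43 for Abcb1a and 0.78 for Abcb1b. The 7 targets that edgeR did not call were Dusp1, Cebpd, Errfi1, Mt1, Lcn2, Pdk4 and Ddit4. Their adjusted p by edgeR ran from 0.0629 (Ddit4) to 0.917 (Errfi1). The call of Mt2, among the 6, was lost on leaving out any 1 control library (adjusted p of 0.0643 to 0.082) and without a filter on low counts; it was called in 9 of 13 alternatives, whose adjusted p ran from 3.78e-08 to 0.082. The receptor gene itself, Nr3c1, had 52.6, 38.7 and 57.5 CPM with corticosterone and 45.9, 39.6 and 38.3 CPM in controls (log2 fold change 0.27, adjusted p = 0.391). Without corticosterone replicate 2, Nr3c1 was called higher (log2 fold change 0.42; edgeR, adjusted p = 0.00949, out of a range of 0.00949 to 0.763 over 13 alternatives).

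Of 20 tested genes for transcription factors known to act on ABC genes, 0 were called by edgeR, against 2.82% of all tested genes. An unadjusted p under 0.05 was found for 5, against 17.0% of all tested genes. DESeq2 gave 17 of them an adjusted p and called Trp53 and Foxo1 higher, where it called 4.04% of 13955 genes higher. Without corticosterone replicate 2, 5 were called higher (Nr3c1, Hif1a, Trp53, Sp1 and Foxo1) and 3 lower (Nr1h2, Tfeb and Srebf2), where 20.5% of all genes were called. Their median log2 fold change with all libraries was 0.01. Trp53 had 154, 164 and 153 CPM with corticosterone and 108, 109 and 140 CPM in controls, without overlap (log2 fold change 0.40; edgeR, adjusted p = 0.0837, range 0.00311 to 0.330 over 13 alternatives). The oxysterol receptor gene Nr1h3 had a log2 fold change of -0.05, which turned to as much as 0.11 among the alternatives, and the xenobiotic receptor gene Nr1i2 had at most 3 counts in a library.

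In each of 3 lists of genes that work beside the transporters, 1 gene fell by edgeR with all libraries. Over all tested genes 1.46% fell and 1.35% rose. Of 11 tested targets of the oxysterol receptor outside the family, 1 fell, Arl4c, with 159, 157 and 168 CPM with corticosterone and 206, 198 and 200 CPM in controls (log2 fold change -0.32; edgeR, adjusted p = 0.0159). Of 22 genes of drug metabolism and glutathione conjugation 1 fell, Mgst1, a microsomal glutathione transferase, with 12.2, 10.6 and 10.8 CPM with corticosterone and 17.0, 17.2 and 17.8 CPM in controls (log2 fold change -0.63; edgeR, adjusted p = 0.00971). Of 11 drug and anion uptake carriers 1 fell, Slco4a1, with 8.83, 9.09 and 7.70 CPM with corticosterone and 12.5, 11.9 and 12.2 CPM in controls (log2 fold change -0.51; edgeR, adjusted p = 0.0349). The medians of the 3 lists were -0.07, -0.08 and -0.10. An unadjusted p under 0.05 was found for 3 oxysterol receptor targets (all lower), 8 genes of drug metabolism (1 higher, 7 lower) and 5 uptake carriers (2 higher, 3 lower), against 17.0% of all tested genes. DESeq2, which called 8.1% of 13955 genes in either direction, called Arl4c and Fasn lower in the first list. In the second it called Gsta4 higher and Mgst1, Mgst3 and Cyp1b1 lower, and limma called Gsta4 and Mgst1. In the third DESeq2 called Slc22a4 and Slc19a1 higher and Slco4a1 lower. Without corticosterone replicate 2, the calls were 0 higher and 3 lower among the oxysterol receptor targets, 2 higher and 7 lower in drug metabolism, and 3 higher and 2 lower among the carriers, where 20.5% of all genes were called.

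The calls of Arl4c, Mgst1 and Slco4a1 each depended on the libraries used. With each library left out in turn, Arl4c was called in 2 of 6 fits (without corticosterone replicate 2 or 3), Mgst1 in 3 (leaving out any treated library) and Slco4a1 in 1 (without corticosterone replicate 2). Arl4c was also lost with the replicate number as a block, and Slco4a1 with that block and without a filter on low counts. The adjusted p over 13 alternatives ran from 2.25e-05 to 0.114 for Arl4c, from 9.88e-07 to 0.0805 for Mgst1 and from 0.00127 to 0.158 for Slco4a1.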

How the data were processed

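RNA sequencing of 6 libraries of 4T1 cells was analysed, 3 labelled corticosterone and 3 control, grouped by the treatment label and numbered by title. The deposited table holds, per the file headers, counts per gene, which the authors did not normalize, and FPKM values, which the authors scaled for transcript length and library depth. Aligner, counter and strandedness: not given in the sources used here. GRCh38 is named in the submitters' processing notes, but all 28154 identifiers are mouse genes; 28086 were found in GENCODE M21 (GRCm38), 90.4% with identical coordinates. There were 62175495 to 66249288 counts per library, and a floor of 3 counts was 0.0453 to 0.0483 CPM (counts scaled to library size).

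Counts were scaled by TMM, filtered with filterByExpr (minimum count 10, minimum total 15) and tested with edgeR 4.0.16 (R 4.3.3), with Benjamini-Hochberg adjustment over 17283 genes. The pipeline was tested on simulated data. The ratio of Abcb1a to Abcb1b counts was compared by exact permutation. Alternatives were DESeq2 1.42.0, DESeq2 size factors, limma 3.58.1 on log2(FPKM + 1) and log2(FPKM + 0.1), other filters, the replicate number as a block, and each library left out. Members and lists were chosen with earlier results of these data known. Genes named were the pair, called members, up to 4 of each role or context list by lowest p, the 5 most abundant members, genes within 300 kb of the pair, and a few fixed regulators and targets. Values of 2 tested members and 1 marker gene are not reported here, though counts and medians include them.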

Additional observations from a re-analysis of the deposited data

How the results depend on the processing

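Abcb1a and Abcb1b stayed higher and called under all 13 alternatives each, with log2 fold changes of 1.01 to 1.55 and 0.74 to 0.82. The number of members called higher was 2, and 4 with DESeq2, 3 with genes limited to a mean of at least 1 FPKM, 3 with the replicate block, and 2 to 7 with a library left out (7 without corticosterone replicate 2). The number called lower was 0, and 0 to 1 with a library left out. All genes called were 487, and 1131 with DESeq2, 211 without a low count filter, 237 with the replicate block, and 88 to 3670 with a library left out, the lowest without control replicate 2 and the highest without corticosterone replicate 2 (123 without corticosterone replicate 1, 239 without corticosterone replicate 3, 166 and 160 without control replicates 1 and 3). Deviations of same-numbered libraries from their group means correlated at -0.00238, 0.0316 and -0.0664, and 2 of 6 libraries correlated best with their own number, so the numbers were not taken to pair the libraries. With the replicate block the log2 fold change was 1.44 for Abcb1a and 0.78 for Abcb1b, and the difference between the pair had a two-sided exact sign-flip p = 0.25, the smallest that 3 pairs allow. The difference between the pair's log2 ratios was 0.57 to 0.77 with a library left out. Over the 37 other genes named from the family and its neighbours, direction turned in 22 of 222 values from fits that left out a library, in 15 genes: their lowest and highest values were -0.080 and 0.032 for Abcf3, -0.19 and 0.17 for Abca1, -0.39 and 0.17 for Abca5, -0.015 and 0.16 for Abcc5, -0.00071 and 0.050 for Abca3, -0.090 and 4.8e-05 for Abcd3, -0.021 and 0.093 for Abcf2, -0.26 and 0.50 for Abcb9, -0.029 and 0.10 for Abcb10, -0.096 and 0.0048 for Abcf1, -0.45 and 0.53 for Abcb4, -0.00057 and 0.39 for Abcd2, -0.24 and 0.21 for Gm17936, -0.045 and 0.060 for Crot, and -0.20 and 0.19 for Gm15610. The cause of these differences was not tested. DESeq2 size factors moved the median log2 fold change of all genes by 0.003.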
